A study of Mus musculus with 35 samples.

Results

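The 7 cone phototransduction genes are Opn1sw, Gnat2, Gngt2, Pde6c, Pde6h, Cnga3 and Cngb3, taken as a list of named genes that was drawn up with earlier results of these data known. They are 7 of the 14708 protein-coding genes whose start could be placed on the genome build of the deposited lists. The data are ChIP-Seq of whole mouse retinae in 27 libraries. Wild-type retinae were sampled at postnatal day 0 (P0), P14 and P21 with 2 libraries per stage for each of H3K27Ac, H3K4me3 and H3K27me3, and at P12 with 1 library for H3K27Ac, 1 for H3K4me3 and 2 for H3K27me3. Brg1-deficient retinae at P12, labelled BRG1 -/-, gave 2 libraries for H3K27Ac, 1 for H3K4me3 and 1 for H3K27me3. They came from Chx10-Cre;Brg1 Lox/Lox mice, in which Cre is expressed in retinal progenitor cells in a mosaic pattern. These retinae therefore also hold cells that kept Brg1. Per the paper, animals with microphthalmia, whose Cre expression was more extensive, were preferred for ChIP-Seq to limit wild-type cells. Brg1, an ATPase of the SWI/SNF chromatin remodelling complexes, was mapped by anti-FLAG ChIP-Seq in 1 library of P0 retinae from the knock-in strain labelled BRG-FLAG, whose own Brg1 carries the FLAG tag.

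Cones are the photoreceptors of daylight and colour vision and form a small minority of photoreceptors in the mouse, where rods predominate. Light activates a cone opsin, here the short-wavelength opsin encoded by Opn1sw, which activates the cone transducin made of an alpha subunit (Gnat2), a beta subunit and a gamma subunit (Gngt2). Transducin releases the cone phosphodiesterase (catalytic subunit Pde6c, inhibitory subunit Pde6h) from inhibition, cyclic GMP falls, and the cyclic nucleotide-gated channel of cones (subunits Cnga3 and Cngb3) closes. H3K4me3 marks active or poised promoters, H3K27Ac marks active promoters and enhancers, and H3K27me3 is laid down by Polycomb over repressed genes, often as broad domains. In whole tissue, fewer cells that carry a mark and less of the mark per cell cannot be told apart.

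Starts of 4 of the 7 genes have a promoter sequence in the RefSeq table of build GRCm38.p6, and 250 bases upstream of each are shown because H3K4me3 and Polycomb domains are known to follow CpG dinucleotides, which are in capitals.
Opn1sw: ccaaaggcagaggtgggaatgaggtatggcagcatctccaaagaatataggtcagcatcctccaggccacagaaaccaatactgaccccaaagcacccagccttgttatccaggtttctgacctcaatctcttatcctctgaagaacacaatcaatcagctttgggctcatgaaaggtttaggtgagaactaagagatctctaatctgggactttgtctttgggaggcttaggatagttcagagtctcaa
Gnat2: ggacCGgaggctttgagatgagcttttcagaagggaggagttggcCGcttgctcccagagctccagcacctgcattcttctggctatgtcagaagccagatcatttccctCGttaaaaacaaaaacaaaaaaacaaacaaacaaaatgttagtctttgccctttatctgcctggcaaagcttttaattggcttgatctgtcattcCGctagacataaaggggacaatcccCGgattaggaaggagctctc
Pde6h: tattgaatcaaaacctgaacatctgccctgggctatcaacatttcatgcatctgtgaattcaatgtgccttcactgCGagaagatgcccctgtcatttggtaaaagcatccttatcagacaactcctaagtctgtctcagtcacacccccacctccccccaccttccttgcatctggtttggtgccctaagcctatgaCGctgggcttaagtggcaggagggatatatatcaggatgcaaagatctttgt
Cnga3: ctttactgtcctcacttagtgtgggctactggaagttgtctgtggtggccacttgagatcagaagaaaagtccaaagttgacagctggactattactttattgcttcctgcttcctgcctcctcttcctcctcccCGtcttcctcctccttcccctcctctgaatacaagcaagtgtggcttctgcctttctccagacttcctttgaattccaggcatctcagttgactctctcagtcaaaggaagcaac
The Opn1sw sequence held 0 CpG, that of Cnga3 held 1, that of Pde6h held 2 and that of Gnat2 held 5, against a median of 6 over 32851 promoters of the same length. Cnga3 is listed with a further start 927 bp downstream, whose upstream sequence held 2 CpG. All 4 were therefore at or below the middle of the range for CpG, and their G and C content, 46 to 48.8% for the starts shown, was below the median of 52.4%. On either strand, the letters TAATCC, the core bound by the photoreceptor factors CRX and OTX, occurred in 1 of the 4 genes, at 19 to 14 bases upstream of the Gnat2 start as GGATTA, and in 6.25% of all promoters. The letters AGGTCA, bound by several nuclear receptors, occurred in Opn1sw at 202 to 197 and, on the other strand, at 132 to 127 bases upstream, and in 14% of all promoters. The other letters searched were GGGCGG (32.7% of all promoters, none of the 4 genes), TATAAA (12.4%, Cnga3 at its second listed start only) and CAGCTG (13%, Cnga3 at 169 to 164 bases upstream of its first start). No match overlapped another, and each describes letters only.

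The deposited lists do not give read depth, so each library is described by its number of peaks. Heights are the fold enrichment of the highest peak within 2 kb of a start, and 0 where no peak was called there. H3K4me3 lists held 18534 to 24124 peaks. H3K27Ac lists differed more: the 3 wild-type libraries of replicate 1 at P0, P14 and P21 held 17433 to 18718 peaks and those of replicate 2 held 29304 to 50005. Among the 3 photoreceptor markers whose start could be placed, an H3K27Ac peak was found in both libraries at 1 at P0 and at all 3 at P14 and at P21. None of the 3 placed markers of the pigment epithelium had an H3K27Ac peak in both libraries of any stage. The same held for the 4 placed markers of ganglion cells. For H3K4me3, 1 of the 3 pigment epithelium markers and 3 of the 4 ganglion cell markers had a peak in both libraries at each stage. For H3K27Ac at P0, P14 and P21, 2, 1 and 1 of 2 placed progenitor markers had one. So did 2, 1 and 1 of 2 for Muller glia. For bipolar cells it was 1 of 4 at each stage, and for amacrine and horizontal cells 2, 1 and 1 of 6. Over all starts the shares were 53, 40.4 and 34.4% for H3K27Ac and 66.2, 64.7 and 63.6% for H3K4me3. Of 3 lens markers, 1 had an H3K27Ac peak in both P0 libraries. These counts do not show which cells the tissue held.

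**Figure D1:**
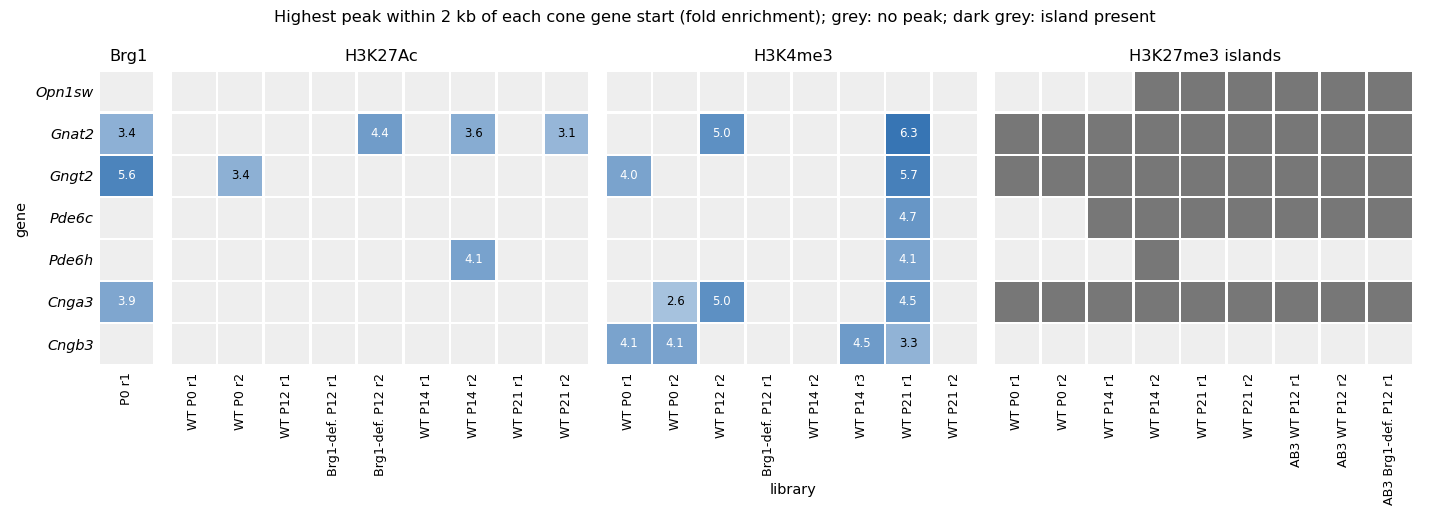
Height of the highest peak within 2 kb of the start of each cone gene (rows) in each library (columns), as fold enrichment, for Brg1, H3K27Ac and H3K4me3, with light grey where there was no peak; for H3K27me3, dark grey marks an island within 2 kb. Filled H3K27Ac cells are few, 6 of the 7 H3K4me3 cells of the wild-type P21 replicate 1 library are filled and none of replicate 2, and H3K27me3 fills most cells of 5 genes.

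Peaks of the active marks at the starts of cone genes were few and low. An H3K27Ac peak was present in 5 of 63 combinations of a gene and a library (7.94%), with heights from 3.12 to 4.39. Over all 14708 starts the share was 54.2% and the median height of the peaks 9.59. An H3K4me3 peak was present in 13 of 56 combinations (23.2%), with heights from 2.58 to 6.28, against 65.6% and a median of 36.8 over all starts. Opn1sw had no H3K27Ac, H3K4me3 or Brg1 peak within 2 kb of its start in any of the 18 libraries of these marks.

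No cone gene had an H3K27Ac peak in both wild-type libraries of P0, P14 or P21, where 53%, 40.4% and 34.4% of all starts had one. At P0 the only peak was that of Gngt2, the transducin gamma subunit, with a height of 3.44 in replicate 2 and none in replicate 1. At P14 replicate 2 held peaks at Gnat2 (3.63) and Pde6h (4.13), and replicate 1 held none at any member. At P21 replicate 2 held a peak at Gnat2 (3.12) and replicate 1 held none. The H3K27Ac peaks at members in wild-type retinae of P0, P14 and P21 thus came from replicate 2, which held more peaks than replicate 1 of its stage. The lone wild-type P12 library, replicate 1 with 47404 peaks, held none at any member.

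Gnat2 was the only member with an H3K27Ac peak in at least 2 of the 6 wild-type libraries and so the only 1 of 7 that could be tested across stages. Gnat2 met this filter through P14 replicate 2 and P21 replicate 2, with no peak at P0, so its differences against P0 could only be positive. Its difference between P21 and P0 was 0.47 ± 0.46 (SE) on the scale of log2(scaled height + 3.25), with an adjusted p of 0.67 by limma, and between P14 and P0 it was 0.36 ± 0.46 (adjusted p by limma 0.88). Between P21 and P14 the limma difference was 0.12 ± 0.46, with an adjusted p of 1. At no start of the 9049 tested did limma call a difference between any 2 stages (0% in each comparison). The counts at an unadjusted p under 0.05 were 681, 938 and 95 starts for P14 against P0, P21 against P0 and P21 against P14, and Gnat2 was in none of them. Nothing in the labels says that the libraries came from separate animals, so p-values measure the spread between libraries, which may be technical.

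The H3K4me3 peaks at cone genes were spread over other libraries. Cngb3, the modulatory channel subunit, was the only member with a peak in both P0 libraries (4.07 and 4.10), where 66.2% of all starts had one. Its start was itself placed by aligning 7 neighbouring starts with P0 H3K4me3 peaks, and at its other end, which could be the start since its strand is not listed, no library had a peak, so this count is a description only. It also had a peak in P14 replicate 3 (4.45) and P21 replicate 1 (3.29), and none in P14 replicate 2 or P21 replicate 2. No member had a peak in both P14 libraries (64.7% of all starts) or in both P21 libraries (63.6%).

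At P21 the 2 libraries differed widely for these genes. Replicate 1, the list with the most H3K4me3 peaks (24124), held a peak at 6 of the 7 members. The heights were 6.28 at Gnat2, 5.74 at Gngt2, 4.65 at Pde6c, 4.50 at Cnga3, 4.11 at Pde6h and 3.29 at Cngb3. Replicate 2, the list with the fewest (18534), held none. All were low for that library, where 0.16 to 3.49% of the starts with a peak had a lower one and the median was 62. A change of H3K4me3 at these 6 genes at P21 and the difference between these libraries cannot be told apart.

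Cnga3, Cngb3 and Gngt2 had an H3K4me3 peak in at least 2 of the 6 wild-type libraries of P0, P14 and P21 and were tested. For P21 against P0, the limma differences on the scale of log2(scaled height + 7.51) were 0.01 ± 0.28 (SE) for Cnga3, -0.44 ± 0.29 for Cngb3 and -0.04 ± 0.29 for Gngt2, with adjusted p-values of 0.99, 0.50 and 0.97. For P14 against P0 they were -0.20, -0.26 and -0.31, with adjusted p-values by limma from 0.70 to 0.80. For P21 against P14 they were 0.22, -0.19 and 0.27, with adjusted p-values by limma from 0.89 to 0.94. Of all 9858 starts tested, limma called 1.79% for P14 against P0, 6.36% for P21 against P0 and 0.0203% for P21 against P14, and no member in any of them. No member passed an unadjusted p of 0.05 either. On this scale the differences of such low peaks are understated.

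Rod counterparts, which encode the same steps in rods, are given by counts beside the cone genes, and their list too was chosen with earlier results known. Of 11 listed, 6 had such a start (Gnb1, Gngt1, Pde6b, Cngb1, Sag, Slc24a1). The rest were not analysed here. An H3K27Ac peak was present in both libraries at 1 of the 6 at P0, 5 at P14 and 5 at P21, and the same counts held for H3K4me3. Limma called H3K4me3 higher at 4 of the 5 tested, both for P14 and for P21 against P0, with 55 and 88 starts called higher among all. Of these, Gngt1, Pde6b and Slc24a1 had no peak at P0 and entered the test only through P14 and P21. The direction of their differences against P0 was thus fixed in advance, and their equal P0 values add no spread to the SE. Pde6b, the rod phosphodiesterase beta subunit and counterpart of Pde6c, had no H3K4me3 peak in either P0 library. It had heights of 22.8 and 25 at P14 and of 71 and 30.4 at P21, and its difference for P21 against P0 was 2.79 ± 0.25 (SE, adjusted p 9.4e-05 by limma). Gngt1, the rod counterpart of Gngt2, went from no peak at P0 to 12.3 and 23.4 at P14 and 41.1 and 18 at P21 (2.16 ± 0.28, adjusted p 0.0011 by limma). Pde6c and Gngt2 had 4.65 and 5.74 in the higher of the P21 libraries. The difference between the lists was not tested.

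Among genes used by rods and cones alike, 7 of 11 had a start that could be placed (Guca1a, Gucy2e, Grk1, Rgs9, Gnb5, Pdc, Aipl1). All 7 had an H3K27Ac peak and an H3K4me3 peak in both P21 libraries, and limma called H3K4me3 higher at 5 of them for P21 against P0. Of these, Guca1a, Grk1, Gnb5 and Aipl1 had no H3K4me3 peak at P0, so the same limit holds for them. Of the 4 other cone genes listed, 3 had such a start. Opn1mw, the medium-wavelength opsin, and Arr3, cone arrestin, had no peak of H3K27Ac, H3K4me3 or Brg1 in any library, as Opn1sw had none. The rod counterpart Cngb1 had none either. Slc24a2, a sodium, calcium and potassium exchanger listed with the other cone genes, had H3K4me3 peaks in all 8 libraries, from 9.33 to 35.2. Whether these peaks come from cones was not tested. Rods outnumber cones in these retinae, and the part that cell numbers play in these heights was not tested.

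**Figure D2:**
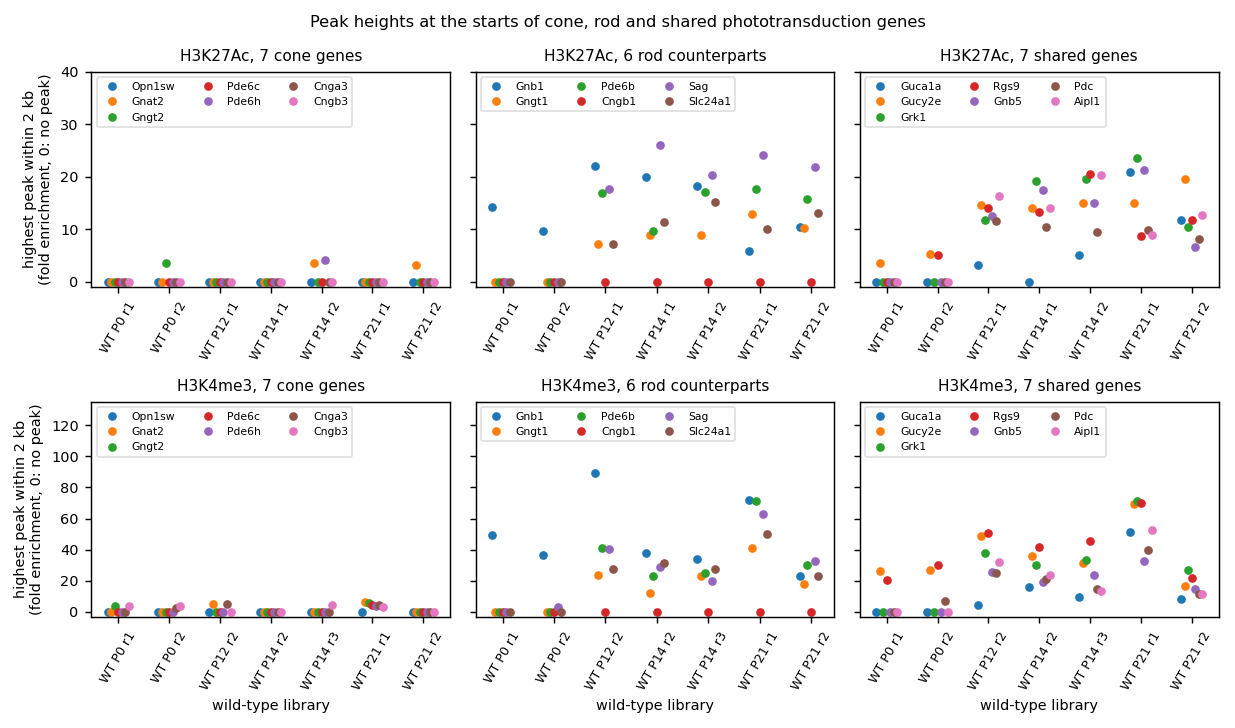
Highest peak within 2 kb of the start, as fold enrichment, in each wild-type library for the 7 cone genes, 6 rod counterparts and 7 genes shared by rods and cones (upper row H3K27Ac, lower row H3K4me3; each point is 1 gene in 1 library, and 0 is no peak). Cone genes do not exceed 6.28 in any library, whereas 5 of the rod counterparts and all 7 shared genes have peaks in every P21 library.

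H3K27me3 was frequent at the same starts. SICER islands, the broad domains deposited by the authors, lay within 2 kb of the start of Gnat2, Gngt2 and Cnga3 in all 9 H3K27me3 libraries (6 of antibody AB1 and 3 of AB3, each read for presence only), a pattern found at 13.5% of all starts. At P0 these were the only 3 members with an island in both libraries, where 21.9% of all starts had one. At P14 there were 4 members with an island in both libraries (20.4% of all starts) and at P21 there were 5 (21.7%). Cngb3 had no island near its start in any library. Pde6h had one in P14 replicate 2 alone, the list with the most covered sequence (213 Mb), and that island reached only 1.12% of the 4-kb window around the start.

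Opn1sw and Pde6c had no island within 2 kb of their starts in either P0 library and had one in both P21 libraries, as did 3.29% of all starts. No member showed the opposite change, which was found at 4.01% of all starts, a share too low for its absence to be a result about the members. For Pde6c this holds only for the end taken as its start: its strand is not listed, and its other end had no island in any of the 9 libraries, which would leave 3 members at P14 and 4 at P21. Pde6c also had an island in both P14 libraries, whereas at P14 Opn1sw had one in replicate 2 and none in replicate 1. The shares of all starts with an island were 23.7 and 29.3% in the P0 libraries and 22.2 to 30.9% in those of P14 and P21, so islands were not more frequent at starts at later stages in general, although they covered more of the genome (96.6 and 114 Mb at P0 against 127 to 213 Mb).

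At Opn1sw the islands near the gene differed in where they ended. At P0 the nearest island ended 6000 bp upstream of the start in replicate 1 and 5800 bp upstream in replicate 2. In P14 replicate 1 the island ended 3200 bp upstream. In P14 replicate 2 and both P21 libraries an island ran over the start and ended 4200 to 5400 bp downstream of it, which included the whole gene. In P21 replicate 1 it was chr6:29325001-29354999 (mm9), 29999 bp long. These distances depend on the placement of the start, which is approximate.

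The part of a gene under islands was larger after P0 for 3 members. For Gnat2 it was 49.2 and 16.4% of the gene in the P0 libraries, 100 and 94.5% at P14 and 100% in both P21 libraries. For Cnga3 it was 19.7 and 25% at P0, 86.3 and 96.8% at P14 and 58.2 and 72.5% at P21. For Pde6c it was 0 in both P0 libraries, 23.5 and 34.9% at P14 and 22.3 and 16.4% at P21. The part of Pde6c does not depend on its strand. In these 3 of 7 members all 4 later libraries lay above both P0 libraries, as in 6.91% of all genes. The reverse was found in 4.09% of all genes and in no member, which at so low a share is no result about the members. The later lists also covered more of the genome (127 to 213 Mb against 96.6 and 114 Mb). In both P21 libraries the island over Gnat2 began 14338 bp upstream, beyond the listed starts of Ampd2 and Gm12500. Gngt2 was already covered to 100 and 79.8% at P0 and to 100% in all 4 later libraries. With 2 libraries per stage these are descriptions, and no test was made.

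**Figure D3:**
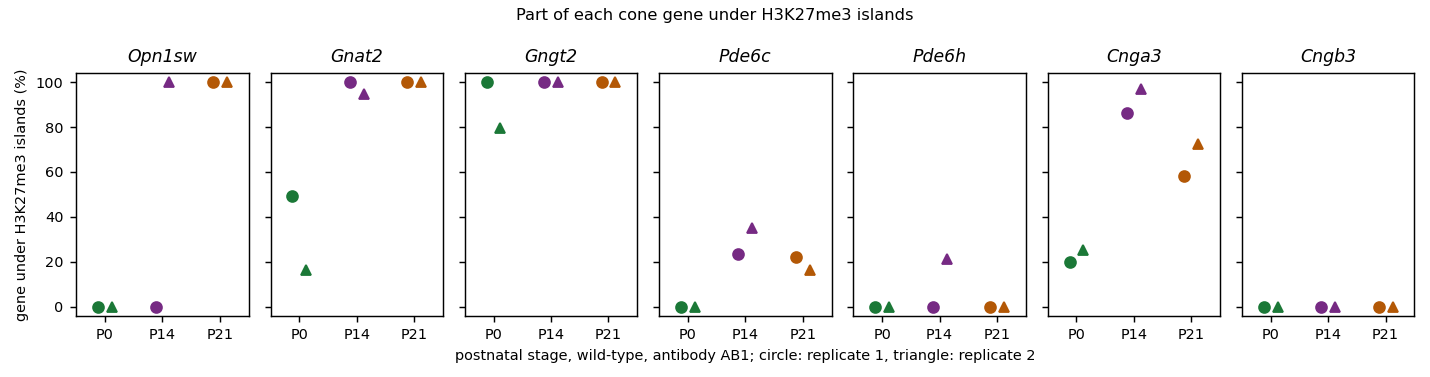
Part of each cone gene under H3K27me3 islands in the wild-type libraries of antibody AB1, as percent of the gene (y axis) by stage (x axis), with a circle for replicate 1 and a triangle for replicate 2. Gnat2 and Cnga3 lie at 16.4 to 49.2% at P0 and at 58.2 to 100% later, Opn1sw is at 0 except in P14 replicate 2 and both P21 libraries, and Cngb3 is at 0 throughout.

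Among the 6 rod counterparts, 2 had an island in both P0 libraries and 0 in both P14 or both P21 libraries. Both, Pde6b and Slc24a1, had none in either P21 library. At P12, 2 of the 6 had an island in both wild-type libraries and 1 in the Brg1-deficient library. For Slc24a1 the 4-kb window around the start was covered to 100% in both P0 libraries, to 0 and 29.9% at P14 and to 0 at P21, and it held an island in all 3 P12 libraries. For Pde6b, 83.3 and 100% of the 4-kb window around the start was covered at P0 and 0 in all 4 later libraries. Of the shared genes, 1 of 7 had an island in both P21 libraries, and of the other cone genes 1 of 3, Slc24a2. Retinal cells other than cones contribute most of the chromatin, and which cells carried the islands at cone genes was not tested.

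At P12 the islands were called with another antibody, AB3, so their extent is compared within P12 only. At the ends taken as starts, the same 5 members (Opn1sw, Gnat2, Gngt2, Pde6c and Cnga3) had an island within 2 kb in both wild-type libraries and in the Brg1-deficient library, against 23.9 and 26.9% of all starts. The part of Gnat2 under islands was 100 and 78.8% in wild type and 89.1% in the Brg1-deficient library. For Opn1sw it was 67.7 and 78.1% against 72.9%, and for Cnga3 58.2 and 78.6% against 72.8%. For these 3 genes the Brg1-deficient value lay between the wild-type values. For Gngt2 it was 79.8% against 100% in both wild-type libraries, and for Pde6c 7.90% against 8.29 and 21.6%, both below the wild-type values. No test was made, with 1 Brg1-deficient library.

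The active marks gave little to compare at P12. For H3K27Ac, only Gnat2 could be tested, with no peak in the wild-type library or in Brg1-deficient replicate 1 and a peak of 4.39 in Brg1-deficient replicate 2. Its difference was 0.48 ± 0.60 (SE) on the scale of log2(scaled height + 3.46), with an adjusted p of 1 by limma. The lone wild-type library was assumed to vary like the other groups, from whose spread the SE was taken. With 1 peak in 1 of the 3 P12 libraries, the value bears little on the genotype. Limma called 0% of 9312 starts, and 82 passed an unadjusted p of 0.05, Gnat2 not among them. For H3K4me3, Gnat2 and Cnga3 each had a peak of 4.98 in the wild-type library and none in the Brg1-deficient library. On the scale of log2(scaled height + 8.31) the difference was -0.57 for each. A 2-fold difference, found at 1.48% of 9805 starts, could not be reached on this scale by peaks so low, so its absence says nothing about these genes. No member had an H3K4me3 peak in the Brg1-deficient library and 2 had one in the wild-type library, against 65.1 and 66.6% of all starts. The Brg1-deficient list held 19495 peaks and the wild-type list 22846, with median heights at starts of 36.0 and 53.9. A difference by genotype at these 2 genes and the difference between these libraries cannot be told apart.

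Brg1 peaks at P0 lay within 2 kb of the start of 3 members, Gngt2 (5.57), Cnga3 (3.89) and Gnat2 (3.41), against 57.9% of all starts, whose peaks had a median height of 5.91. These 3 were also the members with an H3K27me3 island in both P0 libraries. Over all starts, 14.9% had both, which is 25.7% of the starts with a Brg1 peak and 68% of those with an island in both P0 libraries. At Gnat2 the peak was chr3:107896070-107896389 (mm9) and its summit lay 2 bp downstream of the start as placed. That placement is approximate: the offset was -196927 bp from genes within 5 Mb and -197047 bp from genes within 2 Mb. At Gngt2 it was chr11:95703111-95704421 (mm9), from 38 bp below to 1272 bp above the end taken as the start. At Cnga3, chr1:37276468-37276840 (mm9), it lay 1320 to 1692 bp downstream of the first start. Opn1sw, Pde6c, Pde6h and Cngb3 had none. There was 1 Brg1 library, so these heights have no replicate error.

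The region from 20 kb before to 20 kb after each gene was read for H3K27Ac and Brg1. Cngb3, the longest of the 7, had no peak of either in this region, and Cnga3 had its Brg1 peak and no H3K27Ac in any of the 9 libraries. Over all genes, 21.9% had no H3K27Ac peak in such a region in any library and 27.3% no Brg1 peak. Pde6h had H3K27Ac in 2 libraries and no Brg1 peak, and Pde6c had H3K27Ac in 2 libraries and 1 Brg1 peak. Opn1sw and Gnat2 had H3K27Ac in 7 libraries and Gngt2 in all 9, as 47.4% of all genes did.

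Much of this signal lay at the starts of neighbouring genes. For Opn1sw all 7 H3K27Ac peaks and both Brg1 peaks (up to 7.59) lay 14431 to 17714 bp upstream, at the listed start of Ccdc136 16062 bp away. The largest region near Gnat2, 8623 to 6460 bp upstream, covered the listed starts of Ampd2 and Gm12500, with H3K27Ac of 3.35 to 5.21 in 7 libraries and Brg1 up to 6.32. At the Gnat2 start itself, 69 bp upstream to 415 bp downstream, H3K27Ac was found in Brg1-deficient P12 replicate 2 (4.39), P14 replicate 2 (3.20) and P21 replicate 2 (3.12), together with the P0 Brg1 peak.

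The strand of Gngt2 is not listed, so its sides are given by coordinate. It had 9 Brg1 peaks in its region, the most among the members, where the median over all genes was 2. They included 5 separate regions from 12719 to 6777 bp on the lower-coordinate side of the end taken as its start, with heights of 3.42 to 4.35 and no H3K27Ac in any library, inside the H3K27me3 islands of all 9 libraries. On the higher-coordinate side, at chr11:95719443-95721202 (mm9) and 16294 to 18053 bp from that end, H3K27Ac was found in all 9 libraries. Its heights were 6.37 and 9.72 at P0, 7.16 in wild type and 8.93 and 7.89 in Brg1-deficient retinae at P12, 5.72 and 9.04 at P14 and 5.22 and 8.18 at P21, with Brg1 at 5.34. The stages overlapped, and the P12 groups differed by less than the replicates of P0, P14 or P21 did. This was the only region near a member with H3K27Ac in every library, and no listed start of another gene lay within 2 kb of it. It was merged over the H3K27Ac and Brg1 libraries. Merged over the 6 wild-type H3K27Ac libraries of P0, P14 and P21, it held the separate regions chr11:95719568-95720103 and chr11:95720203-95721202 (mm9). The latter had no peak in P21 replicate 1.

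**Figure D4:**
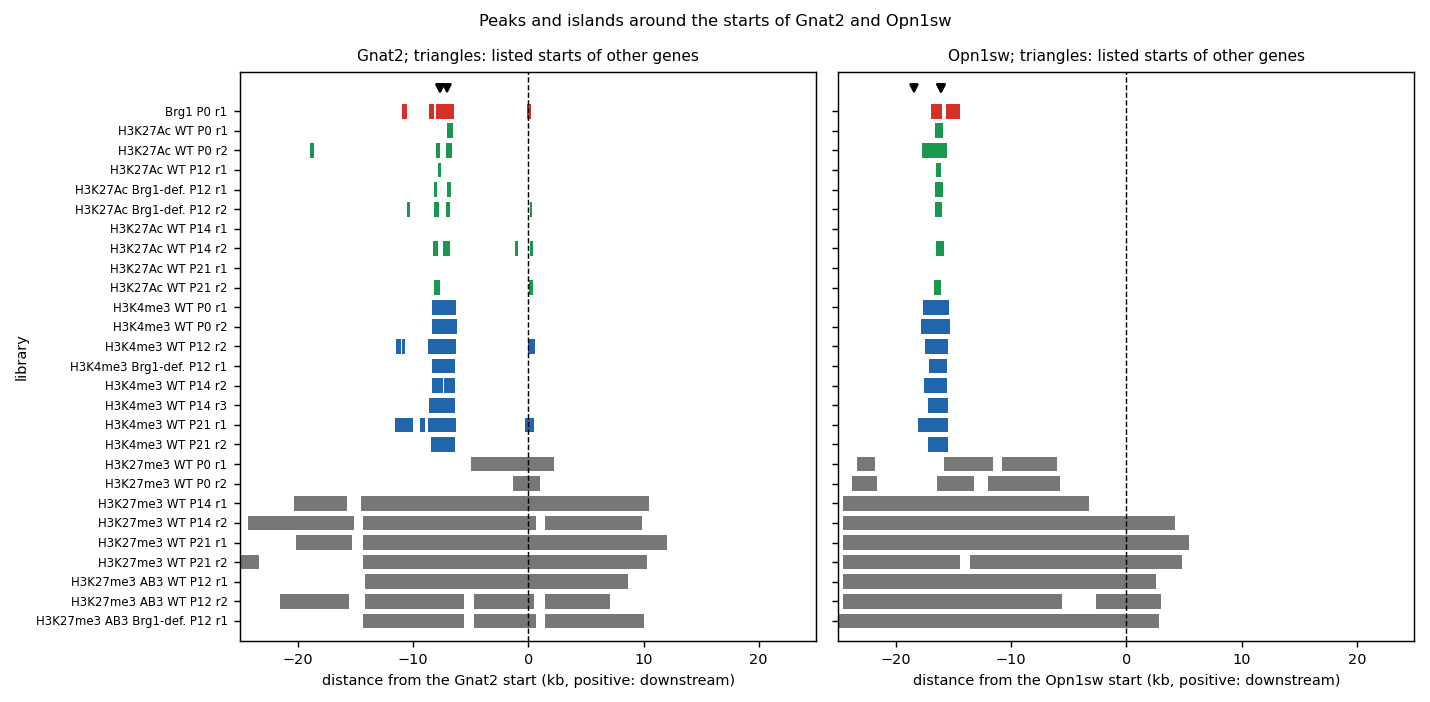
Peaks of Brg1 (red), H3K27Ac (green) and H3K4me3 (blue) and islands of H3K27me3 (grey) in each library (rows) by distance from the start of Gnat2 (left) and Opn1sw (right) in kb, with positive values downstream and triangles at listed starts of other genes. Active marks gather at the neighbouring starts 7090 to 7664 bp upstream of Gnat2 and 16062 bp upstream of Opn1sw, and islands lie over the Opn1sw start in every later library except P14 replicate 1.

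Of the merged H3K27Ac regions in these windows, 9 had a peak in at least 2 of the 6 wild-type libraries and were tested. Limma called none of the 9 for P14 against P0, where it called 0% of 33340 regions (5337 at an unadjusted p under 0.05), and none for P21 against P0, where it called 10.4%. For P21 against P0 the smallest p was that of chr3:107888699-107889593 (mm9) near Ampd2, with heights of 5.21 and 3.36 at P0, none and 3.78 at P14 and none in both P21 libraries. Its difference was -1.55 ± 0.51 (SE, adjusted p 0.10 by limma). At the Gnat2 start the difference was 0.64 ± 0.60 (adjusted p 0.48 by limma). That region had no peak at P0 and was tested only through its peaks at P14 and P21, so its sign was fixed in advance.

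By likeness of pattern over the 17 H3K27Ac and H3K4me3 libraries, only Gnat2 had enough peaks to be compared with other genes. The highest correlations among 9146 starts were those of Spag8 (r = 0.79), Hspb1 (r = 0.79) and Rpp25 (r = 0.78), a description that rests on 5 Gnat2 peaks, with no peak at Gnat2 in the other libraries.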

How the data were processed

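ChIP-Seq of retinae was analysed from 18 peak lists and 9 lists of H3K27me3 islands; input libraries were not used. Per the submitters' processing notes the tools were BWA 0.5.9-r26, Picard 1.65, MACS2 2.0.9, SICER 1.1 and bedtools 2.17.0, on build mm9. For each peak the authors deposited a fold enrichment, used as its height, and a −log10 q-value, used only to choose the strongest 50% of peaks. The fourth column of the island lists is of unstated meaning and was not used. Peaks were called per library and not on pooled replicates, and read depth is unknown; a shallower or less enriched library calls fewer weak peaks.

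Gene starts came from a RefSeq table (GRCm38.p6), and no coordinates were converted. Each start was moved by the local offset that put most coding starts within 5 Mb within 1 kb of wild-type P0 H3K4me3 peaks, centred on those peaks. An offset needed at least 5 aligned starts, 30% of the starts and 1.5 times the next best. Member offsets rested on 21 to 87 aligned starts, and that of Cngb3 on 7 of 7. The strand of Gngt2, Pde6c and Cngb3 is not listed there, and their lower-coordinate end was taken as the start. At their other ends no H3K27Ac peak was found. The other end of Pde6c had an island in 0 of 9 libraries (7 of 9 at the end used) and H3K4me3 in 0 of 8 (1 of 8), that of Cngb3 had H3K4me3 in 0 of 8 (4 of 8), and that of Gngt2 had islands in 9 of 9, a Brg1 peak of 3.16 and H3K4me3 up to 6.70 in 3 of 8.

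Heights within 2 kb were scaled to a common median over starts with a peak in every library and compared with limma 3.58.1 (R 4.3.3) on log2(height + 5th percentile of heights) over all starts with a peak in at least 2 libraries, with Benjamini-Hochberg adjustment at 0.05. Merged H3K27Ac regions were fitted in the same way. The offsets were tested on simulated starts. The fit was tested on simulated heights at starts with a peak in every library, which no member had. That simulation therefore does not show how the fit behaves for heights that are low or mostly 0, as at the members. Groups and replicate numbers follow the labels. Members are all named, other genes by 3 lists (other cone, rod and shared genes), retinal markers and likeness to a member; Ccdc136, Ampd2 and Gm12500 were named for their position. Members and lists were chosen with earlier results of these data known. Python 3.11.15 was used. Alternatives are given in the closing section.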

Additional observations from a re-analysis of the deposited data

How the results depend on the processing

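Read depth, the approximate placement of starts and 1 or 2 libraries per group limit these results. Across 24 results and 235 alternatives, 221 gave a count within 1.5 times the reported one. For the tests at starts much of this agreement was fixed in advance. No member start could be tested where a peak was required in every library or among the strongest 50% of peaks. For H3K27Ac, limma called 0 of all starts in most settings. The tally is therefore not a measure of how firm the results are. The offset not centred on peaks and the leaving out of H3K27me3 libraries were chosen after seeing the data. Within 5 kb instead of 2 kb, 2 members had an H3K4me3 peak in both P0 libraries, and 0 had one among the strongest 50% of peaks or with offsets from genes within 2 Mb, which left Cngb3 out. Among the strongest 50% of peaks, 1 member had a Brg1 peak. With 1 library left out, the counts in the remaining one ranged from 0 to 1 (H3K27Ac at P0), 0 to 2 (H3K27Ac at P14), 0 to 1 (H3K27Ac at P21), 2 to 2 (H3K4me3 at P0), 0 to 1 (H3K4me3 at P14) and 0 to 6 (H3K4me3 at P21). For H3K27me3 they were 3 at P0, 4 to 6 at P14 and 5 at P21.

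No tested member start was called under any alternative. For regions, P21 against P0, 0 to 1 region was called with 1 library left out. The Ampd2 region fell by 1.24 (log2, adjusted p 0.041 by limma) with only the 2 stages compared and fell by 1.22 (adjusted p 0.043 by limma) without P14 replicate 2, 1 region in each case. Without P21 replicate 2, the difference at chr11:95720203-95721202 (mm9) near Gngt2 was -2.26. It rests on P21 replicate 1 alone, which had no peak there. This is a part of the region near Gngt2 that had H3K27Ac in every library when merged. With the replicate block, 0 members or member regions were called in 6 fits. The numbers were not taken as pairing the samples. For H3K27Ac the differences between replicates 1 and 2 correlated with r = 0.14 between P0 and P14 and 0.05 between P0 and P21. For H3K4me3 between P0 and P21 the value was 0.13. For H3K27Ac between P14 and P21 it was 0.49, so low correlation is no reason there. A shared effect of the replicate was not tested.

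Counts over all starts moved more. For H3K4me3, P21 against P0, they ran from 46 (no scaling) to 1318 (replicate block) against 627. For P14 against P0 they ran from 7 to 387 against 176, and for P21 against P14 from 0 to 23 against 2. For H3K27Ac they ran from 0 to 25 (P14 against P0) and 0 to 48 (P21 against P0) against 0. H3K27Ac regions called ran from 0 to 3348 against 0 (P14) and from 0 to 7252 against 3465 (P21). The causes were not tested.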

Other observations

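The H3K4me3 peaks at Gnat2 (chromosome 3) and Cnga3 (chromosome 1) in the wild-type P12 library had the same height (4.98) and the same −log10 q-value (6.86). How such ties arise was not tested. In P21 replicate 1 a peak at Gngt2 and the peak at Pde6c likewise shared a height of 4.65 and a −log10 q-value of 5.66, and a peak at Pde6h and a peak at Cnga3 shared a height of 4.11 and a −log10 q-value of 4.07.

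At Pde6h the H3K27Ac peak of P14 replicate 2 and an H3K4me3 peak of P21 replicate 1 overlapped away from the start, at 2325 to 1964 and 2203 to 1757 bp upstream (mm9 chr6:136901320-136901681 and chr6:136901442-136901888). At Gnat2, the H3K27Ac peaks over the start in 3 libraries of different stages or genotypes had summits within 187 to 200 bp downstream of it. The placement of that start is approximate.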
